A study of Mus musculus with 2 samples.

Results

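B cells of B16F10 melanomas were studied in 2 single-cell RNA libraries, 1 from control mice and 1 from mice labelled as lacking Usp18 in myeloid cells. A barcode was taken as a B cell when it held at least 3 UMIs of Cd79a, Cd79b and Ms4a1 together, with at least 1 of Cd79a. It also had to hold fewer than 3 UMIs of Siglech (plasmacytoid dendritic cells), at most 1 of Cd3e, Cd3d and Cd3g (T cells) and at most 2 of C1qa, C1qb and C1qc (macrophages). UMIs, or unique molecular identifiers, count the transcripts caught from a cell. The rule was met by 1803 of the 12815 barcodes that had at least 200 genes and at most 10% mitochondrial UMIs. Of these B cells, 1378 came from the control library and 425 from the library labelled knockout.

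The mice were C57BL/6 and carried Usp18 flanked by loxP sites (Usp18f/f) in both groups. The second group also carried LysM-Cre, in which Cre recombinase is expressed from the Lyz2 locus of myeloid cells. B16F10 cells, a mouse melanoma line, were injected under the skin, and tumors were taken on day 14. Live CD45-positive cells of 4 tumors were pooled for each group, with about 8000 cells aimed for, so each group is 1 library and no difference between them has a replicate check. Intervals given below are 95% intervals for counting error alone and do not cover the spread between mice.

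B cells recognise antigen through a membrane immunoglobulin that signals through CD79A and CD79B, and they present peptides of that antigen to helper T cells on MHC class II. Pax5 and Ebf1 hold the lineage identity, CD23 (Fcer2a) and CD21 (Cr2) mark mature follicular and marginal zone cells, and tumors can hold resting, activated, germinal centre and antibody-secreting B cells. Usp18 is itself switched on by type I interferon and restrains the interferon receptor, so that interferon-stimulated genes are the transcripts closest to the targeted gene. The comparison addresses how B cells differ between tumors of the 2 genotypes.

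Of the given markers that the rule did not use, Ebf1 was found in 88.2% of control B cells and 92.5% of the others, Pax5 in 65.5% and 62.6%, and Fcer2a in 42.9% and 46.8%. At least 1 UMI of Ebf1, Pax5 or Fcer2a was present in 97.4% of control B cells (1342 of 1378) and, in the library labelled knockout, in 96.2% (409 of 425). Among T cells, defined by at least 2 Cd3 UMIs, the shares were 0.994% and 0.298%. The marker sum had a median of 8 UMIs per cell in the control library and of 9 in the other. At the threshold, 77 control barcodes and 15 of the other library held exactly 3 marker UMIs, and 92.2% and 100% of them held Ebf1, Pax5 or Fcer2a. Just outside it lay 41 and 15 barcodes with a sum of 2 that met every other criterion, and 95.1% and 80.0% of these held one of the same genes, so the threshold left out some barcodes with B-cell transcripts.

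**Figure D1:**
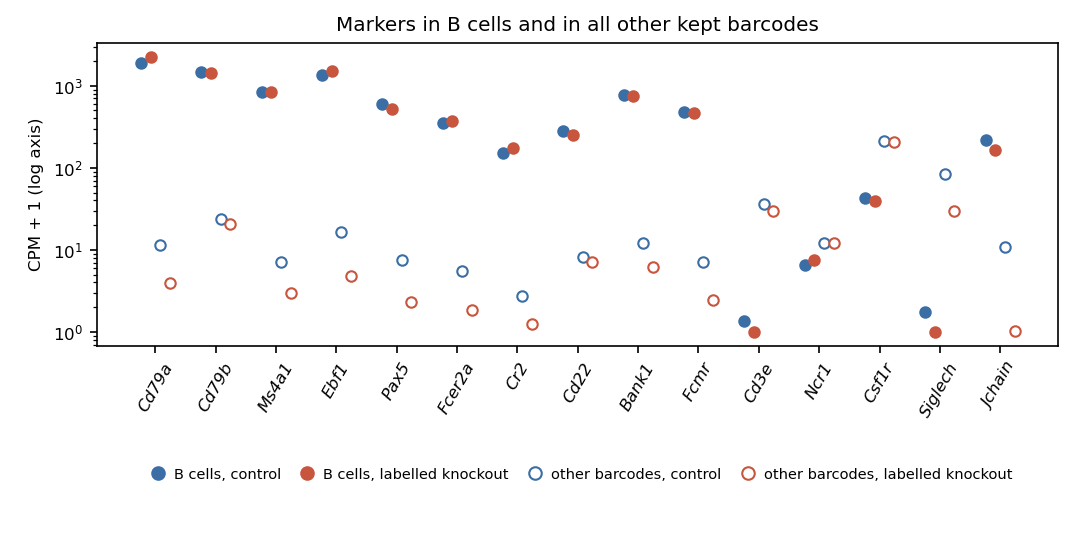
Levels in CPM, with 1 added and on a log axis, of B-cell genes and of markers of other cell types, in B cells (filled) and in all other kept barcodes (open) of each library. Cd79a lay at 1885 and 2246 CPM in B cells and at 10.4 and 2.97 CPM in the rest, while Cd3e and Siglech were higher in the rest.

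The libraries held 43412346 and 48167632 UMIs in 7754 and 6063 deposited barcodes, control first. Kept barcodes had medians of 2840 and 4682 UMIs, while B cells were shallower, with medians of 1537 UMIs and 845 genes in the control library and 1814 UMIs and 930 genes in the other. The summed B-cell UMIs were 2714064 and 921555. Of the barcode sequences, 8 occurred in both libraries, 3 of them as a B cell. The tumors held cells of both sexes in unequal parts: among barcodes other than B cells with only Xist or only Y-linked UMIs, 33.4% carried Xist in the control library and 86.4% in the other. Usp18 itself was not lower in the library labelled knockout. In C1q-positive macrophages it stood at 19.7 CPM in control and 94.6 CPM in the other library, and 3′ reads outside the deleted part would not report the deletion. Lyz2, the locus that carries Cre, was at 7562 CPM in control macrophages and 13.9 CPM in the other library. Because Usp18 went against the label, the second group is called the library labelled knockout throughout.

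B cells were a smaller share of the kept barcodes in the library labelled knockout. They made up 19.4% of kept barcodes in the control library (1378 of 7086, Clopper-Pearson interval 18.5 to 20.4) and 7.42% in the other (425 of 5729, 6.75 to 8.13). The share was 2.62-fold lower (2.36 to 2.91). Fewer B cells and more cells of other types cannot be told apart from shares alone. C1q-positive macrophages (at least 3 C1q UMIs) were 9.79% and 18.2% of kept barcodes, T cells 19.9% and 17.6%, NK cells 2.48% and 2.71%, and plasmacytoid dendritic cells 2.43% and 1.43%.

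The share was also lower against other lymphocytes and within each sex. Of barcodes with B, T or NK markers, B cells were 44.0% (42.3 to 45.8) in the control library and 23.4% (21.5 to 25.4) in the other, a 1.88-fold difference. Of B and T cells together they were 49.4% and 29.7%. Among barcodes with Xist and no Y-linked UMI, B cells were 23.8% (372 of 1564) and 7.42% (273 of 3677). Among barcodes with Y-linked UMIs and no Xist, they were 14.2% (394 of 2769) and 6.43% (37 of 575). In both sexes the share was thus lower in the library labelled knockout, 3.20-fold and 2.21-fold. Within the control library the share was higher in the Xist-only barcodes than in the Y-only ones, with intervals that do not overlap (21.7 to 26.0 against 12.9 to 15.6).

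**Figure D2:**
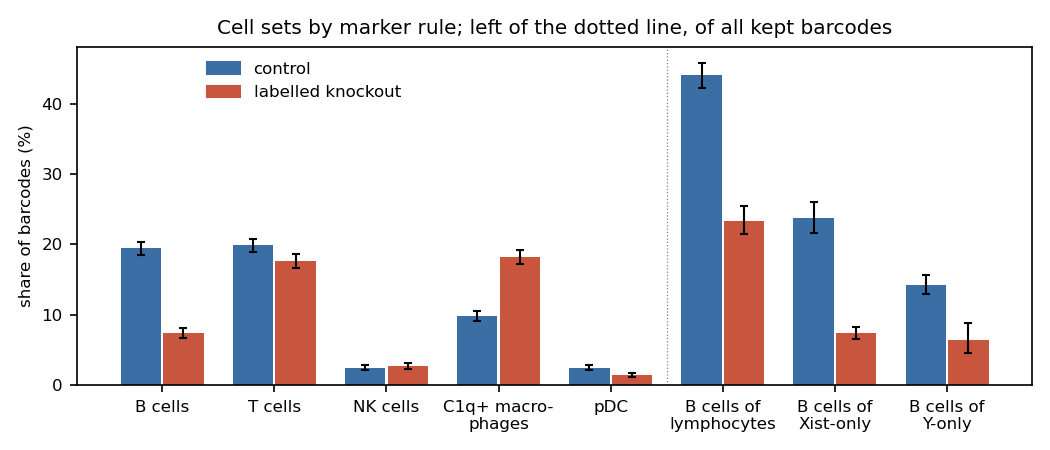
Shares of barcodes in percent, with exact Clopper-Pearson 95% intervals as error bars, for B cells and other cell sets among all kept barcodes (left of the dotted line) and for B cells among barcodes with lymphocyte markers, with Xist only or with Y-linked UMIs only (right). The B-cell share is lower in the library labelled knockout under each denominator.

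The genes that set B cells apart from all other barcodes are the B-cell receptor and its regulators, and they are given as a description since the cells were chosen on some of them. Ranked by level in B cells over the rest, the first 15 included Cd79a, Ebf1, Ms4a1, Pax5, Bank1, Fcmr, Cd79b, Fcer2a, Pou2af1, Cd55, Ralgps2, Vpreb3, Mzb1 and Ly6d. Cd79a (ENSMUSG00000003379 in the files, 7:24897381-24902197 on GRCm38, plus strand), which encodes one signalling chain of the receptor, stood at 1885 CPM (1834 to 1938) in control B cells and 2246 CPM (2150 to 2345) in the other library. Its level in all other barcodes was 10.4 and 2.97 CPM. CPM are UMIs of a gene per 1000000 UMIs of all B cells of a library, not corrected for gene length, so levels are compared between libraries and not between genes. Ms4a1, which encodes the surface protein CD20, was at 843 CPM in both libraries, and Cd79b at 1461 and 1449 CPM. The transcription factor Ebf1 was at 1369 and 1503 CPM and Pax5 at 604 and 518 CPM, with Pax5 lower in the library labelled knockout by a log2 ratio of -0.22. Fcer2a, the low-affinity IgE receptor of follicular B cells, was at 354 and 369 CPM.

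Promoter sequences of 3 of these B-cell genes are shown as examples of the letters known for B-lineage transcription factors, whose own transcripts are given above and below. The sequences are from RefSeq (GRCm38.p6), written along the gene's strand, and capitals mark the match. Cd22, an inhibitory coreceptor, holds the palindrome known for EBF1, TCCC and GGGA set apart by any 2 bases, at 7:30879048-30879097 (minus strand). Blnk, an adaptor of the receptor, and Vpreb3, a small B-lineage protein, hold the octamer ATGCAAAT known for OCT factors and their coactivator Pou2af1, on the reverse strand, at 19:40994324-40994371 (minus) and 10:75948235-75948282 (plus).
Cd22: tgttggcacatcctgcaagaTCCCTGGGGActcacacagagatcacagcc
Blnk: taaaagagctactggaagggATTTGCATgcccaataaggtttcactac
Vpreb3: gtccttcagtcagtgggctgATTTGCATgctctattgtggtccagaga
Searched on both strands in the 250 bases before the start, the octamer occurred in 1.81% of the 27025 genes with an entry and in 2 of the 24 matched genes of the B-cell receptor list, Blnk and Prkcb. The palindrome occurred in 0.914% of genes and in 1 of those 24. Cd22 was at 279 and 247 CPM, Blnk at 264 and 221 CPM, and Vpreb3 at 176 CPM (161 to 193) and 242 CPM (211 to 276), a log2 ratio of 0.45. A match describes letters only.

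Most genes of the B-cell programme differed little between the libraries. Over the 7222 genes with at least 50 UMIs in the B cells of both libraries together, 15 (0.208%) were at least 2-fold higher and 78 (1.08%) at least 2-fold lower in the library labelled knockout, with 5 CPM added to each level. Of the 15, 5 are sex-linked or haemoglobin genes, and of the 78, 4 are Y-linked. The median log2 ratio over all 7222 genes was -0.10. With so few genes past 2-fold, a list with 0 such genes, here or below, is near the share of all genes. Of 31 measured genes for the receptor complex, its coreceptors and its signalling proteins, 0 were past 2-fold in either direction. Their ratios ran from -0.26 for Prkcb, a kinase upstream of NF-kB, to 0.26 for Bcl10, an adaptor of the same route, and the median was -0.10. The kinases Syk (539 and 482 CPM) and Btk (113 and 105 CPM) and the coreceptor Cr2 (152 and 173 CPM) lay in that range. Of 19 measured B-lineage transcription factors, 0 were past 2-fold, and the median was -0.08. The lowest ratio was that of Foxo1, -0.31, and the highest that of Spi1, 0.33, a factor that myeloid cells carry too. Klf2, which keeps resting lymphocytes recirculating, was at 940 CPM (904 to 978) and 1133 CPM (1065 to 1204).

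Genes of mature B cells were found at nearly the same share of cells in both libraries, and homing genes differed by less than 2-fold. When each cell was thinned to 1000 UMIs (1343 control cells and 416 of the other library, with 35 and 9 shallower cells left out), Fcer2a was found in 31.9% of control B cells and, in the library labelled knockout, in 30.5%, against 0.144% and 0% of T cells. Without thinning the shares were 42.9% and 46.8%. Cr2 was found in 15.9% and 16.1%, against 0% of T cells in both, and unthinned in 22.2% and 26.6%. In the follicular homing list 0 of 15 measured genes were past 2-fold, with a median of -0.11. That count is near the share of all 7222 genes, of which 0.208% were past 2-fold higher and 1.08% lower. S1pr1, the receptor that draws lymphocytes out of tissue, was at 217 CPM (200 to 235) in control and 145 CPM (122 to 172) in the other library, a log2 ratio of -0.56. The integrin chain Itga4 was at 411 and 310 CPM. Ccr7, the receptor for lymph node chemokines, was at 322 CPM (301 to 344) and 299 CPM (265 to 337), which overlap. Ltb, which encodes the lymphotoxin chain that organises lymphoid tissue, was higher, at 599 CPM (570 to 629) and 834 CPM (777 to 896). These intervals do not overlap for S1pr1, Itga4 or Ltb.

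Precursor and marginal zone genes were unevenly spread. Rag2, Vpreb1 and Igll1, genes of B-cell precursors, had 0 UMIs in both libraries, and Rag1 had 2 and 0. Cd24a, high on immature and transitional cells, was at 231 CPM (213 to 250) in control and 152 CPM (128 to 179) in the other library, and was found in 20.6% (18.5 to 22.9) and 13.7% (10.5 to 17.4) of thinned B cells. The unthinned shares were 31.1% and 25.6%, and T cells had 0.862% and 1.21%. Vpreb3, of the same list, was higher (the CPM values above), in 17.5% (15.5 to 19.6) and 21.6% (17.8 to 25.9) of thinned cells and 25.3% and 36.2% unthinned. Of 9 marginal zone genes 7 were measured and 0 were past 2-fold, near the share of all genes. Cd9 was at 60.4 and 33.6 CPM, in 66 and 18 cells, and was lower in B cells than in the other barcodes. Plac8, which monocytes also express, was at 577 CPM (548 to 606) and 958 CPM (896 to 1024), and its ratio of 0.73 became 0.33 without cells that carried markers of other types (defined below). Cd1d1 had 48 and 12 UMIs.

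Transcripts of B-1, germinal centre and antibody-secreting cells were found in few barcodes. Cd5, a B-1 marker that T cells share, had UMIs in 5 thinned control B cells (6 unthinned) and in 0 of the other library, which allows up to 0.721% of its 416 thinned cells to hold a Cd5 UMI at that depth and sets no limit on cells expressing the gene. Bhlhe41 was seen in 23 and 4 cells. The germinal centre genes other than Basp1 and Neil1 reached 3 UMIs in 0 thinned cells of either library. Jchain, which joins secreted antibody, had 582 UMIs in 2 control cells, 575 of them in 1, and 149 UMIs in 1 cell of the other library, so 3 barcodes held all of it. Mzb1, a chaperone of antibody secretion that mature B cells also express at a lower level, was found in 27.0% and 29.6% of thinned cells, against 0.215% and 0% of T cells. Sdc1, a plasma cell surface marker, had 30 UMIs in control and 1 in the other library. Il10, the cytokine of regulatory B cells, had 2 UMIs and 0 UMIs.

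**Figure D3:**
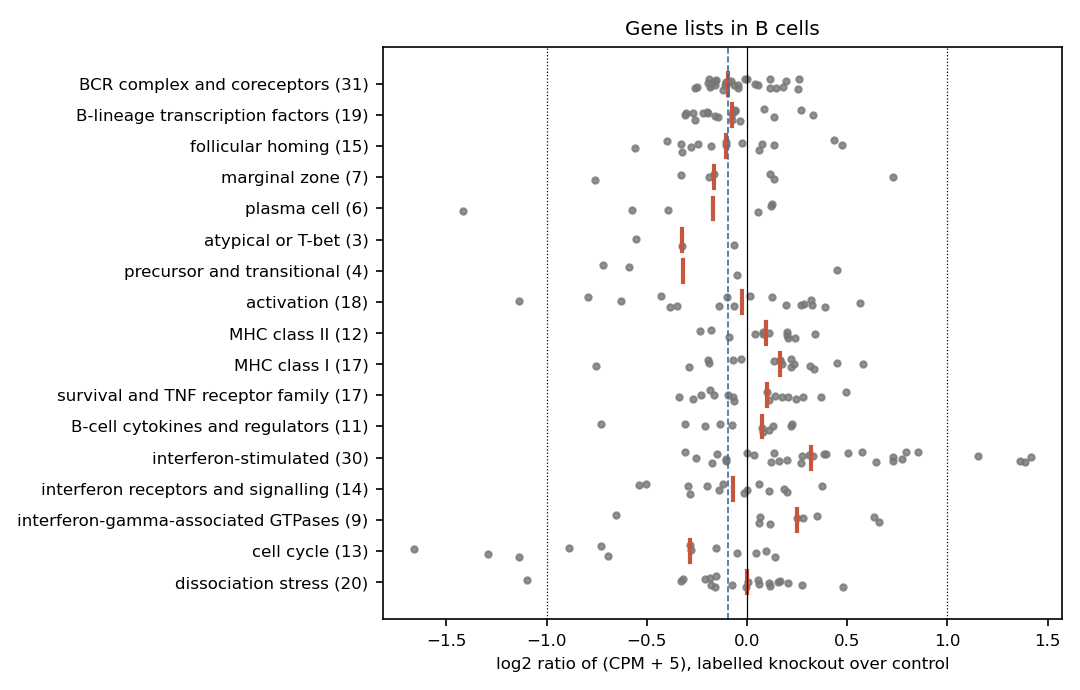
Log2 ratio of (CPM + 5), library labelled knockout over control, with 1 point per measured gene of each list (number in brackets), list medians as red bars and the median of all 7222 genes as a dashed line; the dotted lines are at 2-fold, and the B-1 and germinal centre lists, with 1 and 2 measured genes, are not drawn. The interferon-stimulated list has 4 genes past 2-fold higher, and the B-cell receptor list has 0 past 2-fold.

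Activation genes were split. Of 18 measured genes 9 had ratios above 0 and 9 below, and the median was -0.02. Cd69, an early activation antigen that holds lymphocytes in tissue, was at 354 CPM (332 to 377) and 339 CPM (302 to 378), and Cd83 at 141 and 131 CPM. Both sets of intervals overlap. The costimulatory ligand Cd86 was at 99.5 CPM (88.0 to 112) and 126 CPM (104 to 151). The NF-kB regulator Nfkbid was lower, at 115 CPM (103 to 129) and 72.7 CPM (56.3 to 92.3). The chemokine Ccl3 was the only measured gene of the list past 2-fold, at 73.0 and 30.4 CPM, with its UMIs in 48 and 8 cells. All other barcodes held more of it, at 195 and 217 CPM. Its log2 ratio of -1.14 ran from -2.61 without B cells over 3000 UMIs to -0.32 without doublets called by Scrublet. Without the cells that carried markers of other types, 31 and 2 UMIs were left. Receptors of survival signals differed little: Tnfrsf13c, the receptor for BAFF, was at 182 CPM (166 to 198) and 162 CPM (137 to 190), and Cd40 at 47.9 and 52.1 CPM. Of 17 measured survival genes 0 were past 2-fold, near the share of all genes.

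MHC class II, through which B cells present antigen, was expressed at a high level in both libraries. H2-Aa was at 3318 CPM (3250 to 3387) and 3506 CPM (3386 to 3629), H2-Ab1 at 2669 CPM (2608 to 2732) and 3070 CPM (2958 to 3185), and Cd74, the invariant chain, at 9548 and 9814 CPM. Of 12 measured genes 9 had ratios above 0, none was past 2-fold, and the median was 0.09. Over all measured genes, 2623 of 7222 (36.3%) had ratios above 0. Ciita, the master activator of the class, was at 136 and 115 CPM. The list's median was -0.40 in C1q-positive macrophages of the same libraries and -0.01 in plasmacytoid dendritic cells, and it was 1.04 in T cells and 1.19 in NK cells. These differences from B cells were not tested.

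For MHC class I, 11 of 17 measured genes had ratios above 0, with a median of 0.17 and none past 2-fold. Psmb8, a subunit of the immunoproteasome, was at 305 CPM (285 to 327) and 459 CPM (416 to 505). H2-D1 was at 1336 CPM (1293 to 1380) and 1684 CPM (1601 to 1770). H2-Q7, for which paralogs with near-identical sequence exist, was at 293 and 401 CPM and is uncertain. Erap1, which trims peptides, was at 16.2 and 7.60 CPM, from 44 and 7 UMIs.

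Interferon-stimulated genes were the list with the largest median among the 19 lists. Of 44 listed genes 43 were in the table and 30 were measured. Of these, 23 had ratios above 0 and 4 were past 2-fold higher, and the median was 0.32. Over all 7222 genes 0.208% were past 2-fold higher and the median was -0.10. The list's median was 0.13 without the cells with markers of other types and 0.0014 in barcodes with Y-linked UMIs only. Isg15 (4:156199424-156200818, minus strand), a ubiquitin-like protein and the substrate of Usp18, had 29 UMIs in control and 34 in the other library, or 10.7 CPM (7.16 to 15.3) and 36.9 CPM (25.6 to 51.6), a 3.45-fold difference (2.04 to 5.87). In the library labelled knockout, 29.4% of these UMIs came from 1 cell. Irf7 (7:141262706-141266481, minus strand), the factor that amplifies interferon responses, had 56 UMIs in each library, or 20.6 CPM (15.6 to 26.8) and 60.8 CPM (45.9 to 78.9). Ifi27l2a (12:103442167-103443680, minus strand), a small interferon-induced membrane protein, rested on the most UMIs of the 4, 671 and 604, and was at 247 CPM (229 to 267) and 655 CPM (604 to 710), 2.65-fold higher. Oasl2 (5:114896936-114912234, plus strand), of the oligoadenylate synthetase family, was at 12.9 CPM (8.98 to 17.9) and 34.7 CPM (23.8 to 49.0). In all 4 genes, which were picked for their ratios, the intervals of the libraries do not overlap. An interval of the fold above 1 was found for 14 of the 30 list genes and one below 1 for 0. Among all 7222 genes, 356 (4.93%) had one above 1 and 764 one below 1.

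Other members were higher by less. The antiviral membrane proteins Ifitm3 and Bst2 were at 279 and 466 CPM and at 56.0 and 105 CPM, the nucleic acid sensor Zbp1 at 35.4 and 61.9 CPM, and the ADP-ribosyltransferase Parp14 at 94.0 CPM (82.8 to 106) and 142 CPM (119 to 169). In barcodes with Y-linked UMIs only, Ifitm3 had a log2 ratio of -0.33 and Ly6e one of -0.26. Ifitm1, a relative of Ifitm3 outside the list, was lower. It had 200 UMIs in 25 control cells and 7 UMIs in 6 cells of the other library. Its log2 ratio of -2.64 was -1.78 without the cells with other markers and -1.15 without doublets called by Scrublet. Across settings it ran from -4.70 in barcodes with Y-linked UMIs only to -0.18 without B cells over 3000 UMIs. Ly6e, the most strongly counted gene of the list, was at 1751 CPM (1701 to 1801) and 1923 CPM (1834 to 2014), a ratio of 0.14. The lowest ratio of the list was that of Rnf213, -0.31. Several classical members were too sparse to count as measured: Ifit1 had 13 and 18 UMIs, Rsad2 16 and 17, and Mx1 16 and 22. The interferon receptor genes were not higher. Ifnar1 was at 112 and 90.1 CPM and Ifnar2 at 52.7 and 34.7 CPM. Of 14 measured receptor and signalling genes 0 were past 2-fold, near the share of all genes.

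The promoter of Isg15 is printed beside those of Slfn5 and Trim30a, an interferon-induced Schlafen gene and an interferon-induced tripartite motif gene measured in B cells, because these hold the letters GAAA repeated after any 2 bases, recognised by interferon regulatory factors. They are RefSeq sequences of GRCm38.p6 along the gene's strand, at 4:156200855-156200916 (minus), 11:82951927-82951976 (plus) and 7:104465200-104465249 (minus), with matches on either strand in capitals.
Isg15: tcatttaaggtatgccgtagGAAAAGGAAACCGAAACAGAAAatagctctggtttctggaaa
Slfn5: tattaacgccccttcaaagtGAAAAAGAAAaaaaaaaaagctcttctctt
Trim30a: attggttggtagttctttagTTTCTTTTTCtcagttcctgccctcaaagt
The stretch in Isg15 joins 3 overlapping matches that begin 78 to 66 bases before the start. Searched on both strands over 250 bases, these letters occurred in 6 of the 24 measured interferon-stimulated genes with an entry and in 3.46% of all 27025 genes. They occurred in 1 of 24 receptor list genes. Irf7 and Oasl2, both past 2-fold, had no match in this window. Slfn5 was at 39.8 CPM in control and 58.6 CPM in the other library, and Trim30a at 145 and 176 CPM.

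**Figure D4:**
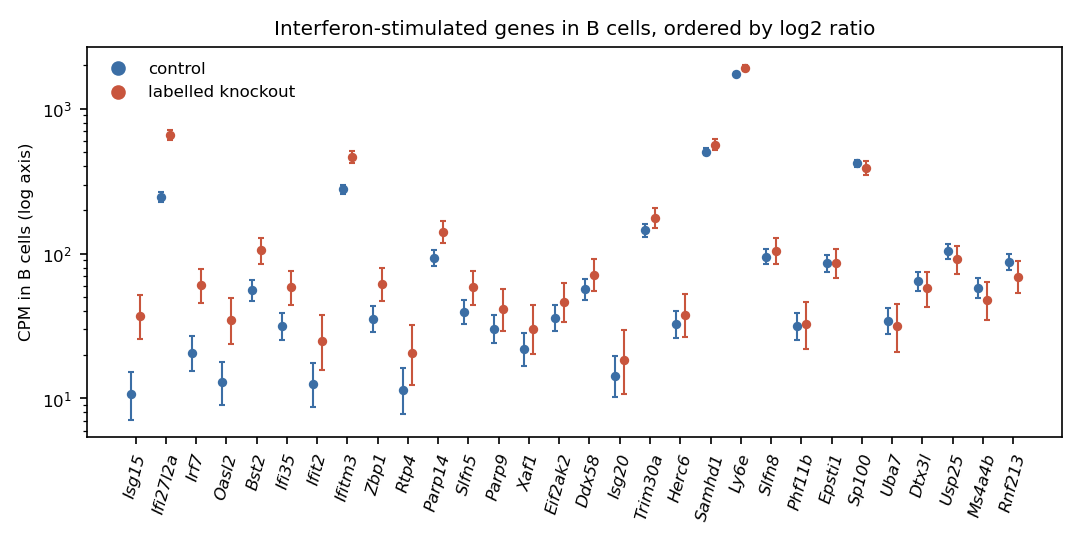
Levels in CPM, on a log axis, of the 30 measured interferon-stimulated genes in B cells of each library, ordered by log2 ratio, with exact Poisson 95% intervals as error bars. Isg15, Ifi27l2a, Irf7 and Oasl2, at the left, have intervals that do not overlap between the libraries.

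For Ifi27l2a, Irf7 and Isg15, picked for their ratios, the difference was visible as the share of cells with transcripts. In thinned B cells Ifi27l2a was found in 15.7% (13.8 to 17.8) of control cells and 32.9% (28.4 to 37.7) of the other library, while T cells had 26.6% and 37.3%. Irf7 was found in 1.41% (0.854 to 2.20) and 4.33% (2.58 to 6.75), with 3.45% and 5.85% in T cells. Isg15 was found in 0.670% and 2.64%, or 9 and 11 cells, with 2.23% and 7.97% in T cells. Of other list members, Ifitm3 was found in 4.77% (3.69 to 6.04) and 9.62% (6.96 to 12.9). Intervals overlapped for Bst2, in 3.65% (2.71 to 4.80) and 5.29% (3.34 to 7.90), and Zbp1, in 2.68% (1.88 to 3.69) and 4.57% (2.77 to 7.04). They also overlapped for Ifit3 and Ly6e. The unthinned shares were 24.1% and 46.1% for Ifi27l2a, 3.12% and 8.71% for Irf7, and 1.74% and 4.71% for Isg15. At least 3 UMIs of the list, leaving out Ly6e, Samhd1 and Sp100, were held by 19.3% (17.2 to 21.5) and 31.0% (26.6 to 35.7) of thinned B cells. Isg15 shares of B cells lay below those of T cells in both libraries.

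The other cells of the tumor differed in the same direction. In all barcodes other than B cells, Isg15 was at 50.9 CPM in control and 457 CPM in the other library, and Ifi27l2a at 414 and 1349.6 CPM. Isg15 was 3.45-fold higher in B cells (2.04 to 5.87), 7.94-fold in T cells (6.75 to 9.38), 9.41-fold in C1q-positive macrophages (8.64 to 10.3), 7.19-fold in plasmacytoid dendritic cells (4.74 to 11.3) and 1.72-fold in NK cells (1.08 to 2.79). Over the genes measured in B cells the median log2 ratio of the list was 0.32 in B cells, 0.50 in T cells, 0.04 in NK cells, 0.99 in macrophages and 0.76 in plasmacytoid dendritic cells. Usp18 had 30 and 12 UMIs in B cells, or 11.1 CPM (7.46 to 15.8) and 13.0 CPM (6.73 to 22.8), a ratio of 1.18 with an interval of 0.549 to 2.37. In T cells it was 3.77-fold higher (2.84 to 5.07) and in macrophages 4.81-fold higher (4.03 to 5.77). The B-cell interval lies below both of these intervals, and with 1 pool per group the difference between cell types was not tested over mice. The part that free RNA from other cells has in the B-cell values was not tested.

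Transcripts of other cell types were present in some B cells and moved with several results. Of the 78 lower genes, the leading ones are not B-cell genes. Lyz2 had 2491 UMIs in 159 control B cells and 5 UMIs in the other library, or 918 and 5.43 CPM. Lyz2, the locus that carries Cre, was also lower in macrophages (7562 and 13.9 CPM) and T cells (512 and 0.808 CPM). Its difference is thus not particular to B cells and does not measure how much myeloid RNA they carry. S100a9, a neutrophil alarmin, had 513 and 0 UMIs in B cells, and Dct, a melanocyte enzyme, had 939 and 25. In the control library 1 cell held 979 of the 1665 melanoma marker UMIs, and 3 cells held 49.6% of the 1134 neutrophil marker UMIs. In the library labelled knockout the neutrophil list summed to 11 UMIs, with S100a9, Retnlg, Cxcr2 and Mmp9 at 0, and the melanoma list to 68. Of the erythroid markers, control B cells had 0 UMIs and the other library 727, of which 721 were in 1 cell. T-cell markers summed to 91 and 18 UMIs, 33.5 and 19.5 CPM, and macrophage markers without Apoe to 291 and 134 UMIs, 107 and 145 CPM, both limited by the rule that chose the cells.

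Most control UMIs of Lyz2, S100a9 and Dct sat in few, deep barcodes, while other such transcripts were spread thinly. Macrophage markers without Apoe were found in 123 control B cells (8.93%) and in 73 of the other library (17.2%). At least 3 UMIs of markers of T, NK, macrophage, monocyte, neutrophil, conventional dendritic, melanoma or erythroid cells were held by 92 control B cells (6.68%) and 32 of the other library (7.53%). Their median depths were 5199.5 and 5049.5 UMIs, against 1517 and 1789 for the rest, and they held 23.2% and 18.9% of the B-cell UMIs. Without them, 8 genes were at least 2-fold higher and 44 at least 2-fold lower, and the interferon-stimulated median was 0.13. The control B cells that were left still held 159 Lyz2 UMIs and 66 S100a9 UMIs. Isg15 then had a log2 ratio of 1.12, Ifi27l2a 1.10, Oasl2 1.14 and Irf7 0.92, so 3 of the 4 were past 2-fold. Of these, Ifi27l2a rested on 475 and 368 UMIs. Isg15 rested on 11 and 13 UMIs and Oasl2 on 12 and 14, under the minimum of 50 for a measured gene. Of the 15 higher genes 6 remained past 2-fold, and of the 78 lower genes 31 did, with no UMI minimum applied after the removal. Some of these genes, such as S100a9, Dct and the haemoglobin genes, are among the 47 markers by which cells were removed. A fall in their UMIs was fixed by that choice and is not a result about them. Single cells weighed on the sums too: in 6 of the 15 and 12 of the 78, 1 cell held over 50% of the UMIs.

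Of 13 measured cell cycle genes 3 were past 2-fold lower, 10 had ratios below 0, and the median was -0.28. Over all 7222 genes 1.08% were past 2-fold lower, 4599 had ratios below 0, and the median was -0.10. Ube2c (48 and 2 UMIs), Birc5 (63 and 6) and Mki67 (107 and 14), genes of mitosis and proliferation, were those 3, and their UMIs lay in 11, 13 and 21 control cells. In thinned B cells Mki67 was found in 0.670% (0.307 to 1.27) and 0.721% (0.149 to 2.09), with 5.89% and 4.54% in T cells, and unthinned in 1.52% and 1.41%. The intervals of the thinned shares overlap. Without the cells with other markers Mki67 had a ratio of -1.47 (34 and 2 UMIs), Ube2c one of -0.57 (5 and 0) and Birc5 one of 0.03 (8 and 3). All 3 were then under the minimum of 50 UMIs for a measured gene. The stress genes that tissue dissociation can induce, such as Fos at 372 and 370 CPM, had a median of -0.00 over 20 genes.

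Among genes at least as high in B cells as in the rest, the 10 with the largest ratios ran from 0.61 to 1.03 on the log2 scale. Pydc4, a pyrin-domain gene of the interferon-inducible p200 family (1:173566283-173599274, minus strand), had 75 and 57 UMIs, or 27.6 CPM (21.7 to 34.6) and 61.9 CPM (46.9 to 80.1), a log2 ratio of 1.03 and the only such gene past 2-fold. Serpina3g, a serine protease inhibitor, was at 30.6 and 58.6 CPM, Ms4a4c, a relative of the CD20 gene, at 178 CPM (163 to 195) and 285 CPM (252 to 322), and the guanylate-binding protein Gbp5 at 23.6 and 40.1 CPM. Without the cells with other markers Rfxap had the largest ratio of the 10, 0.92, followed by Pydc4 and Unc50 (both 0.84), while Serpina3g had 0.75, Ms4a4c 0.53 and Gbp5 0.22. The other 6 of the 10 were Unc50, Snrnp25, Cdkal1, 2300009A05Rik, Clk2 and Rfxap. Rfxap, a subunit of the complex that drives MHC class II, was at 33.9 and 54.3 CPM. Its ratio was -0.57 with a 5% mitochondrial limit, which kept 95 control B cells and 38 of the other library.

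The lower genes of the same kind were led by Gm43848, an intergenic noncoding RNA (3:105725901-105727147, minus strand) with 121 UMIs in control and 12 in the other library, or 44.6 CPM (37.0 to 53.3) and 13.0 CPM (6.73 to 22.8). It was found in 114 and 12 cells, so no single cell set the sum, and its ratio of -1.46 was -1.55 without the cells with other markers. Tmem68, Tbcel, Rmnd5b and the phosphatase Mtm1 followed with ratios of -1.11, -1.07, -1.05 and -1.03, and 12 UMIs in the library labelled knockout for the first 3. Slc2a3, a glucose transporter, Lats1, a kinase of the Hippo pathway, Tk2, Asun and Usp9x had ratios from -0.93 to -0.90. Usp9x, a deubiquitinase, rested on the most UMIs of the 10, at 142 CPM in control and 73.8 CPM in the other library. Mtm1 and Usp9x lie on the X chromosome, and the sexes of the B cells differed between the libraries (below). Both genes had ratios below 0 at all 13 other settings, with Usp9x at -1.40 in barcodes with Y-linked UMIs only. A part of sex in their ratios was not tested.

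**Figure D5:**
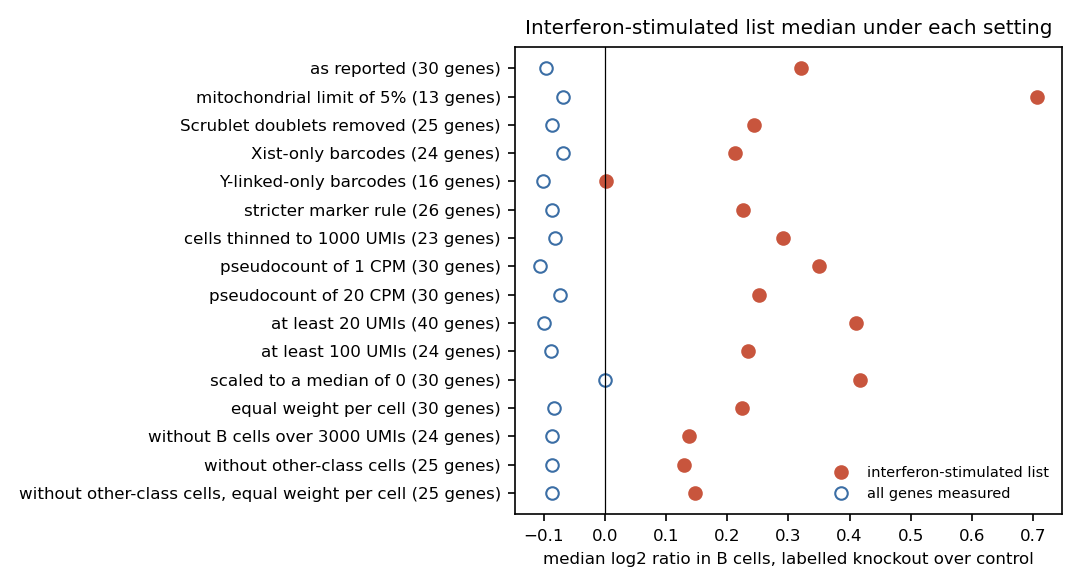
Median log2 ratio in B cells, library labelled knockout over control, of the interferon-stimulated list (filled) and of all genes measured (open) under each setting, with the number of list genes measured in brackets. The list median is 0.32 as reported and 0.00 in barcodes with Y-linked UMIs only.

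The sexes of the B cells differed between the libraries. Xist-only barcodes were 48.6% of the B cells with Xist or Y-linked UMIs alone in the control library (372 of 766) and 88.1% in the other (273 of 310). Among Xist-only B cells the interferon-stimulated median was 0.21, and among Y-only B cells, of which the library labelled knockout held 37, it was 0.00. Isg15 had a ratio of 1.67 in the Xist-only cells and -1.93 in the Y-only cells, and Irf7 had 2.44 and -0.10. Ifi27l2a was higher in both, by 1.05 and 2.14 on the log2 scale. In all 425 B cells of the library labelled knockout, Isg15 had 34 UMIs and Irf7 had 56. Their ratios in the Y-only cells thus rest on few UMIs of that library. The difference between the sexes was not tested.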

How the data were processed

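The data are 2 libraries of CD45-positive tumor cells. For each gene and cell barcode the authors deposited a raw UMI count, not normalized, made with Cell Ranger 3.0.1, per the file headers, on mm10, per the submitters' processing notes. The annotation behind the counts is not given in the sources used here. Gene positions are from GENCODE M21 (GRCm38).

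B cells were taken by the marker rule from barcodes with at least 200 genes and at most 10% mitochondrial UMIs. Their UMIs were summed per library and given as CPM with exact Poisson intervals. For genes with 50 UMIs or more over both libraries, 5 CPM were added to each level and the log2 ratio was taken with control in the denominator. Folds carry exact conditional binomial intervals. Shares carry Clopper-Pearson intervals, and share ratios log-normal ones. All intervals are at 95%. A count of 0 allows up to 3. For shares of cells, each cell was thinned to 1000 UMIs. No doublet caller was applied beyond the marker rule, and Scrublet was an alternative, as were other limits, scalings and cell selections. With 1 library per group there was no test. Python 3.11.15, scanpy 1.11.5 and scipy 1.17.1 were used, and the ratio step was tested on simulated counts.

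The members and gene lists were chosen with earlier results of these data known. Named genes are list members with at least 50 UMIs (sparser ones by UMIs or cells), the 15 leading B-cell genes, and, by ratio, 10 genes per direction at least as high in B cells as in the rest and 5 per direction lower there. These ranked genes had at least 100 UMIs, an interval without 1 and no cell over 20% of the UMIs. Xist, Tsix and Y-linked, mitochondrial, ribosomal, haemoglobin and receptor variable genes were left out, while other X-linked genes were kept. Usp18 and Lyz2 were added as checks. Some genes that the rule covers are not reported here. S100a9, Dct and Fos are named from the marker and stress lists.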

Additional observations from a re-analysis of the deposited data

Results flagged for a closer look

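The X-inactivation transcript Xist, which no comparison above uses as an outcome, stood at 1413 CPM in B cells of the library labelled knockout (1302 UMIs) and at 765 CPM in control B cells (2076 UMIs). It was drawn out because it lies outside the main measurement and exceeds the control level. Haemoglobin transcripts were drawn out for the same reason: 724 UMIs in B cells of the library labelled knockout, 718 of them in 1 cell, and 0 in control B cells. The MHC class II median was drawn out because its sign differed between the sexes, at 0.14 in Xist-only B cells and -0.056 in Y-only B cells, of which the library labelled knockout held 37. That difference was not tested.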

How the results depend on the processing

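No paired analysis was possible because each group is 1 library and the labels give no replicate numbers. The log2 ratio of the B-cell share, -1.39, was -1.68 in Xist-only barcodes, -1.14 in Y-only barcodes and -0.91 of barcodes with lymphocyte markers. The 15 genes past 2-fold higher numbered 31 with a 5% mitochondrial limit, 29 without Scrublet doublets, 50 in Y-only barcodes, 8 with 20 CPM added, 37 with at least 20 UMIs, 8 with at least 100 UMIs, 25 with equal weight per cell and 8 without cells with other markers. The 78 lower genes numbered 251 in Y-only barcodes, 150 and 23 with 1 and 20 CPM added, 170 and 42 with at least 20 and 100 UMIs, 44 without B cells over 3000 UMIs, 44 without cells with other markers and 45 with those left out and equal weight per cell. Scaled to a median ratio of 0 over all genes, 21 genes were higher and 59 lower. The interferon-stimulated median of 0.32 was 0.71 with the 5% limit, 0.0014 in Y-only barcodes and 0.13 without cells with other markers. The 5% limit kept only 95 control B cells and 38 of the other library, and 13 list genes were measured. B cells had median mitochondrial shares of 7.33% and 7.16%. At that limit Ms4a1 had a ratio of 1.15, Fcer2a 0.80 and Cd79b 0.73, against 0.00, 0.06 and -0.01 as reported. The MHC class II median of 0.09 was -0.056 in Y-only barcodes. In Y-only barcodes Isg15 (-1.93), Irf7 (-0.10), Oasl2 (-0.42), Tmem68 (0.75), Tbcel (0.33) and Mki67 (0.20), all past 2-fold as reported, had the other sign, as did Clk2 (-1.38), Ly6c2 (-0.79), 2300009A05Rik (-0.42), Ifitm3 (-0.33), Ly6e (-0.26), Cd79b (0.18) and Cd74 (-0.06), which were not past 2-fold. The library labelled knockout held 37 Y-only B cells, so the Y-only ratios of sparse genes rest on few UMIs. Birc5 was 0.11 with equal weight per cell, 0.029 without cells with other markers and 0.29 with both. For these the cause was not tested, apart from the UMI minimum, which sets how many genes are counted. Of 733 values of 57 named genes at other settings, 548 lay within the counting interval, 176 outside it with no change of sign in a gene past 2-fold, and 9 had the other sign in such a gene. Counting all genes, 40 values of 19 genes had the other sign, 8 of them of Ms4a1 and 7 of Fcer2a, whose reported ratios are 0.00 and 0.06. The alternatives without deep cells and without cells with other markers were chosen after seeing the data. The library labelled knockout, with 921555 B-cell UMIs, limits low genes: 3 UMIs there are 3.26 CPM.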
